A study of Mus musculus with 3 samples.

Results

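This account follows the matrix metalloproteinases (MMPs), the ADAMTS proteases and their inhibitors, the TIMPs, through 3 RNA sequencing libraries of mouse mammary cells. Members were chosen by gene name alone, as every gene named Mmp, Adamts or Timp with a number, which gave 23 Mmp, 19 Adamts and 4 Timp genes, 46 of the 22077 gene names analysed. All mice were of the FVB strain. The first library, LCC (lung-colonizing cells), held mammary cells that were given to recipient mice through a vein and were recovered from their dissociated lungs by sorting after 1 day. In each experiment 8 donor females gave cells to 4 recipients in 2 doses of 2500000. The series text gives the donors as FVB.GFP mice, which carry green fluorescent protein (GFP), and the sample label gives cells of GFP mice or cells of FVB mice stained with the dye DDAO. LCC pooled 455880 cells of 42 lungs from 15 experiments, sorted by GFP or by DDAO, with no surface marker gate stated. E-Int29-Hi, the second library, came from mammary cells gated as EpCAM-intermediate and CD29-high and labelled as enriched for the colonizing cells, and the third, MG, was made from mammary gland tissue without dissociation. Each of these was 3 samples combined. The sources used here give neither ages nor the promoter that drove GFP. The stated purpose was to describe LCC and to find the genes that set the 3 populations apart.

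MMPs are zinc-dependent proteases that cut collagens, laminins, elastin and many signalling proteins, and most are secreted as inactive precursors whose propeptide must be removed. ADAMTS proteases are related secreted enzymes with thrombospondin repeats that cut proteoglycans such as versican and aggrecan, or trim procollagens. TIMPs bind the active site of these enzymes, and the 4 of them differ in which enzymes they hold best. In the mammary gland MMPs take part in branching and in the regression of the gland after lactation, and stromal and immune cells are known as major sources.

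There was 1 library per group, so differences have no replicate check, no test was possible and no p-value is given. Values are FPKM, which is fragments per kilobase scaled to the library's mapped fragments, and read numbers were not given, so the depth is unknown and a level under 1 FPKM may rest on few fragments. A difference is log2((FPKM + 1)/(FPKM + 1)), computed where either of the 2 libraries reached 1 FPKM, and a gene was called higher or lower at a difference of 2 or more in size, which is 4-fold on that scale. Every one of the 46 genes had status OK in each library. Of them 37 reached 1 FPKM and 20 reached 10 FPKM in some library, while 9 stayed under 1 FPKM in all 3. Of the genes behind the gate, Epcam was at 325, 279 and 209 FPKM for LCC, E-Int29-Hi and MG. Itgb1, which encodes CD29, was at 401, 296 and 198 FPKM, so both were highest in LCC. The gate was set on surface protein, for EpCAM at an intermediate level, and these values are RNA. Where 3 levels follow each other without names, they are in the order LCC, E-Int29-Hi, MG. In bulk RNA, fewer cells of a type and less RNA per cell cannot be told apart.

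The sequences below open the account because 4 of the 6 members called higher in LCC than in both other libraries lie in 1 gene cluster. That call was made for 0.987% of all genes at 1 FPKM in any library. On the reference, 10 of the 23 Mmp genes stood in one uninterrupted row on chromosome 9, in the order Mmp13, Mmp12, Mmp1b, Mmp3, Mmp1a, Mmp10, Mmp8, Mmp27, Mmp20 and Mmp7, with no other protein-coding gene between them. RefSeq promoters (GRCm38.p6, 250 bases before to 50 after a transcript start) were at hand for 32 of the 46 genes, in 35 windows. Mmp2, Mmp9 and Mmp19 were among those without a window and were not searched. The files themselves are on another build, mm9, so these coordinates belong to the reference only. The first 4 sequences are from the cluster genes above 10 FPKM in LCC, and the last 2 from cluster genes listed at 0 there. Each is given 5′ to 3′ on the plus strand, with matches to the AP-1 motif TGANTCA and to the TATA box motif TATAAA in capitals.
Mmp3, chr9:7445572-7445871: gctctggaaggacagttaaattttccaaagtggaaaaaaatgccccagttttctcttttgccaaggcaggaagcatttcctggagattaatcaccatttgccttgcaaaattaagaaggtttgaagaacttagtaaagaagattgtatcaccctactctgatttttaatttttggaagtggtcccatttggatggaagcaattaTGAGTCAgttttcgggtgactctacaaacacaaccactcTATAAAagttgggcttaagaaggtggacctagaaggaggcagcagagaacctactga
Mmp10, chr9:7502092-7502391: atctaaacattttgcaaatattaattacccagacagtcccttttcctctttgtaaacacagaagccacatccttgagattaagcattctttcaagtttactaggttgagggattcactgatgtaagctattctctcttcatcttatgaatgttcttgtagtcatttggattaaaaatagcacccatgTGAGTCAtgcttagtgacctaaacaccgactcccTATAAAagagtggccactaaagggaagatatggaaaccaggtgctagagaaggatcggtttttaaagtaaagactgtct
Mmp12, chr9:7347124-7347423: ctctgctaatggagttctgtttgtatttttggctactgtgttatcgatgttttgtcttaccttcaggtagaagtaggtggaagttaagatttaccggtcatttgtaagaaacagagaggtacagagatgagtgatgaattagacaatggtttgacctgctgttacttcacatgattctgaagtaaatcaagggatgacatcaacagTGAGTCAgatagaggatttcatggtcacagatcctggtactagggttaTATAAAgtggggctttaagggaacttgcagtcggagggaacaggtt
Mmp13, chr9:7272264-7272563: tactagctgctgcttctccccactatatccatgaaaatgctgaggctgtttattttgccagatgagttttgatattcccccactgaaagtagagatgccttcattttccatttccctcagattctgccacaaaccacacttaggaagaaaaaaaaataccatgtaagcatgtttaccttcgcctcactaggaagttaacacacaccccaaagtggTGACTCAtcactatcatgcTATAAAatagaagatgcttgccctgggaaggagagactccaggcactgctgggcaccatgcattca
Mmp1a, chr9:7463891-7464190: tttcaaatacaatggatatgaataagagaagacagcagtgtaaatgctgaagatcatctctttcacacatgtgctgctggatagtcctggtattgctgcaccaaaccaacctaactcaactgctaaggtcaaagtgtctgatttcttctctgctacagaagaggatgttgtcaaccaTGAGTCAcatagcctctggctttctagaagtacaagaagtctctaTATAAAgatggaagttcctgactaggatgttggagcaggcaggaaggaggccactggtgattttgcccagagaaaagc
Mmp7, chr9:7691840-7692139: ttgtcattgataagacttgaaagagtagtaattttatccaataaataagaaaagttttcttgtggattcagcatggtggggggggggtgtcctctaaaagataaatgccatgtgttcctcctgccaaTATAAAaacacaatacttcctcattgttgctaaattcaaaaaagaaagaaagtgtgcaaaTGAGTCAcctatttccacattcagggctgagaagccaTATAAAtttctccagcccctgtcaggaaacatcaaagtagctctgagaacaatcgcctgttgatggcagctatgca

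AP-1, a dimer of Fos and Jun proteins, is a long known activator of MMP promoters. Each of the 6 windows held 1 AP-1 match, followed downstream by a TATA box match. Over all members the AP-1 letters, read on both strands, were in windows of 8 of the 32 genes, and these were Mmp1a, Mmp1b, Mmp3, Mmp7, Mmp10, Mmp12, Mmp13 and Mmp20. Each of these 8 lies in the chromosome 9 row, though members outside it without a window could not be searched. Counted by window, the AP-1 letters were in 8 of the 35 member windows, beside 7.81% of all 32851 promoter windows of that length. The AP-1 match began 46 bases before the RefSeq start in Mmp3, 63 in Mmp10, 44 in Mmp12 and 35 in Mmp13. The TATA box match began 29 bases before that start in Mmp10, 16 in Mmp13 and 7 in Mmp3, and after it in Mmp12. Whether transcripts in these libraries began at the RefSeq starts is unknown. An AP-1 match upstream of a TATA box match on the same strand was found in the same 8 genes. That is 8 of the 35 member windows, beside 0.581% of all windows. Mmp12 has 2 windows, of which the second held the match and is shown. The letters were TGAGTCA in 6 of the 8 genes, TGACTCA in Mmp13 and TGAATCA in Mmp20. The match thus did not separate the 4 abundant genes from the other 4, which were listed at 0 in LCC. These genes arose from one another by duplication and so are not independent. The NF-kB search used a fixed letter pattern that does not cover every form of the NF-kB site. That pattern was in windows of 0 of the 32 genes, which do not include Mmp9, and in 1.63% of all windows. Other forms of the NF-kB site were not searched, so their presence in these windows is unknown. The Sp1 letters (GGGCGG), also read on both strands, were in windows of 18 of the 32 genes, Timp1 among them. The Sp1 letters were in 18 of the 35 member windows, beside 35.7% of all windows. A match is a description of letters and not a bound site.

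**Figure D1:**
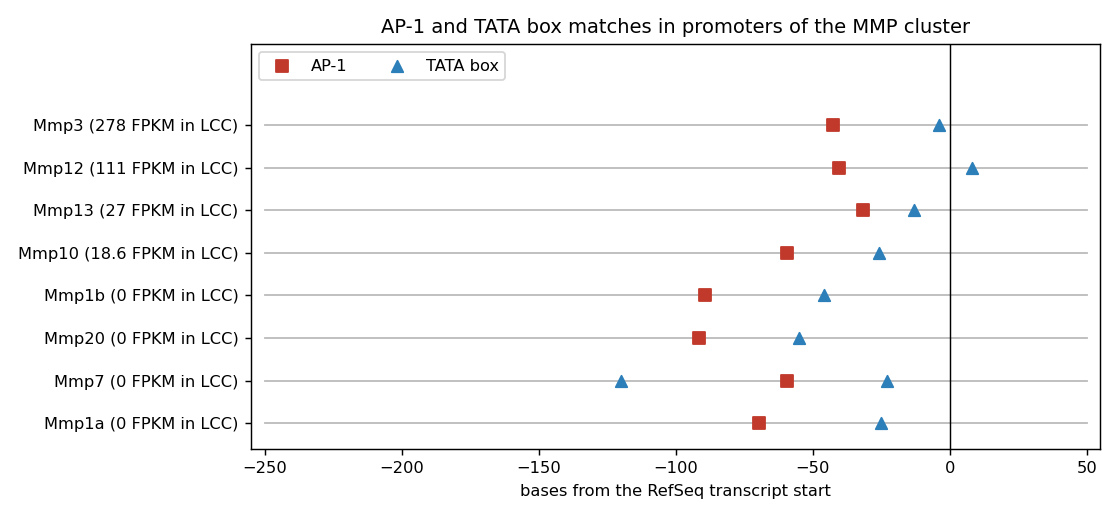
Position of AP-1 matches (squares) and TATA box matches (triangles) plotted at the middle of the match in bases from the RefSeq transcript start (vertical line at 0), for the 8 promoter windows of the MMP cluster that hold both, with each gene's FPKM in LCC beside its name. Every AP-1 match begins between 35 and 95 bases before the start, in the 4 abundant genes and in the 4 listed at 0 in LCC.

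The MMP genes that held most of the transcript were not the same in the 3 libraries. Sums of FPKM are given here without scaling to the library totals. Those totals, over all names analysed, were 375295 FPKM in LCC, 325939 for E-Int29-Hi and 288156 for MG. The 46 members together held 0.371%, 0.277% and 0.442% of them. Summed over the 23 Mmp genes, the level was 734 FPKM in LCC, 206 FPKM in E-Int29-Hi and 435 FPKM in MG. The chromosome 9 row held 59.3% of that sum in LCC, 0.621% for E-Int29-Hi and 17.8% for MG. The genes outside the row summed to 298, 205 and 357 FPKM in the same order, so outside the row LCC lay between the others. Within the row, 4 genes were called higher in LCC than in both other libraries. The remaining 6 stayed under 0.1 FPKM in LCC.

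**Figure D2:**
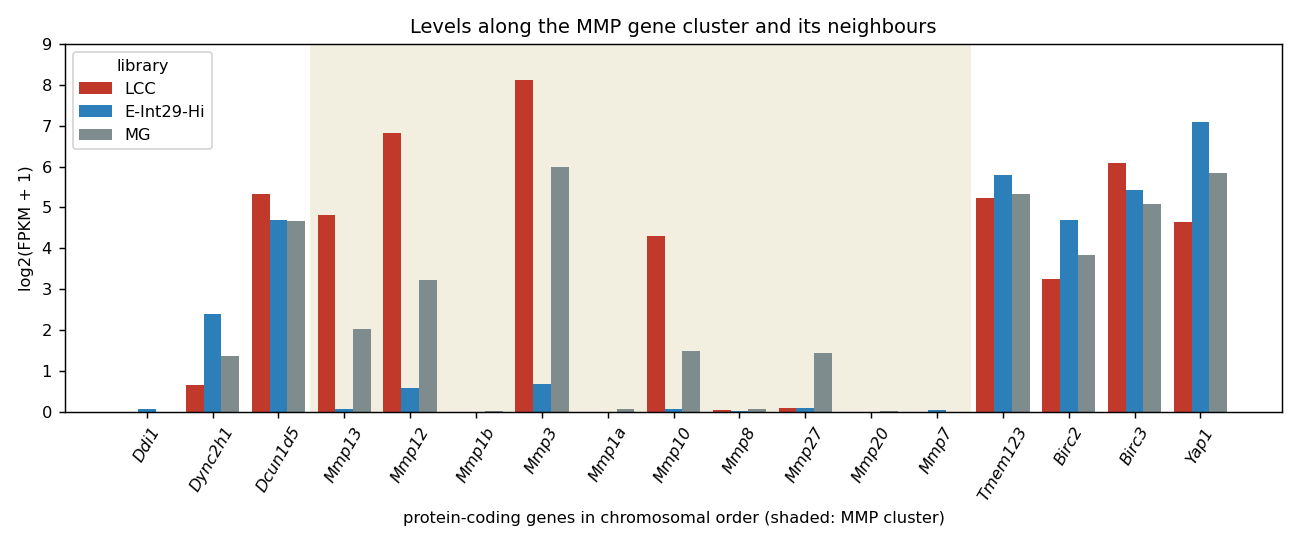
Level of each protein-coding gene as log2(FPKM + 1), in chromosomal order, with bars for LCC, E-Int29-Hi and MG and the MMP row shaded. Within the shading 4 genes stand high in LCC, between genes at or near 0, and none of the 7 flanking genes was called higher in LCC. Over all genes 4.64% were called higher in LCC than in E-Int29-Hi and 1.33% than in MG.

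Mmp3 (stromelysin 1), which cuts laminin, proteoglycans and other MMP precursors, was the most abundant MMP of LCC. Its level was 278 FPKM in LCC, 0.587 FPKM in E-Int29-Hi and 62.5 FPKM in MG. The difference was 7.46 from E-Int29-Hi and 2.14 from MG, and the difference of E-Int29-Hi from MG was -5.32. Mmp3 alone made up 37.9% of the MMP sum in LCC.

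Mmp10 (stromelysin 2), its close relative, was at 18.6, 0.0503 and 1.78 FPKM for LCC, E-Int29-Hi and MG. That is 4.23 above E-Int29-Hi and 2.82 above MG. Mmp11 (stromelysin 3), which lies outside the row and is activated inside the cell by furin, was not called in any comparison. It stood at 2.80, 0.460 and 2.29 FPKM, the same order of libraries as for Mmp3 and Mmp10. LCC was 6.08 times E-Int29-Hi in plain FPKM, and the difference with the added 1 FPKM was 1.38.

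Mmp12, the metalloelastase known from macrophages, was at 111 FPKM in LCC, 0.495 FPKM in E-Int29-Hi and 8.31 FPKM in MG. LCC was 6.23 above E-Int29-Hi and 3.59 above MG, and E-Int29-Hi was below MG (difference of -2.64). Mmp12 exons overlap the opposite-strand gene Mmp1b in the GENCODE M21 annotation, and Mmp1b was listed at 0 in LCC and E-Int29-Hi and at 0.00714 FPKM in MG. Mmp7 (matrilysin), an epithelial MMP, was listed at 0 in LCC and MG and at 0.0212 FPKM in E-Int29-Hi.

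Collagenases cut the triple helix of fibrillar collagen, and 4 genes were classed as such here, Mmp1a, Mmp1b, Mmp8 and Mmp13. The membrane-anchored MMPs were classed apart, whatever their substrates. Of the 4, only Mmp13 was above 1 FPKM. Mmp13 stood at 27.0 FPKM in LCC, 0.0535 FPKM in E-Int29-Hi and 3.09 FPKM in MG, a difference of 4.73 and 2.77. Mmp8, the collagenase of neutrophils, was between 0.0168 and 0.0480 FPKM. Mmp1a and Mmp1b, paralogues within the row, were listed at 0 in LCC and E-Int29-Hi.

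The gelatinases, which degrade denatured collagen and type IV collagen, had unlike patterns. Mmp9 was at 33.6 FPKM in LCC against 0.854 in E-Int29-Hi and 1.32 in MG. It was 4.22 above E-Int29-Hi and 3.90 above MG, the largest member difference from MG. Mmp2 was at 69.4, 122 and 159 FPKM, which is lowest in LCC and within 4-fold throughout (difference of -0.81 from E-Int29-Hi and -1.19 from MG). Of the summed gelatinase level, Mmp2 held 67.3% in LCC, 99.3% for E-Int29-Hi and 99.2% for MG.

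Membrane-anchored MMPs act at the cell surface, and Mmp14 among them also activates the Mmp2 precursor. Mmp14 was abundant in every library, at 157 FPKM in LCC, 72.3 FPKM in E-Int29-Hi and 86.8 FPKM in MG, and no pair was 4-fold apart. Mmp15 stood at 5.53, 2.20 and 10.7 FPKM, and Mmp16, Mmp17, Mmp23, Mmp24 and Mmp25, the other 5 of this class, stayed under 5.4 FPKM. None of these 7 genes was called in any comparison.

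Like Mmp3 and Mmp12, Mmp19 was called lower in E-Int29-Hi than in both other libraries. It was at 23.3 FPKM in LCC, 0.717 FPKM in E-Int29-Hi and 85.0 FPKM in MG. LCC lay 3.83 above E-Int29-Hi and was below MG by less than 4-fold (difference of -1.82). As TPM without mitochondrial, small RNA and unnamed models, the difference of LCC from MG passed the line, at -2.13. E-Int29-Hi differed from MG by -5.65, the largest member difference of that comparison. In GENCODE its exons overlap 2 opposite-strand gene models, Gm47093 and Tmem198b, for which no level was at hand. Of the remaining MMPs, Mmp27 and Mmp28 reached 1.73 and 1.4 FPKM in MG and stayed under 0.3 FPKM elsewhere, and Mmp20 and Mmp21 stayed under 0.1 FPKM.

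**Figure D3:**
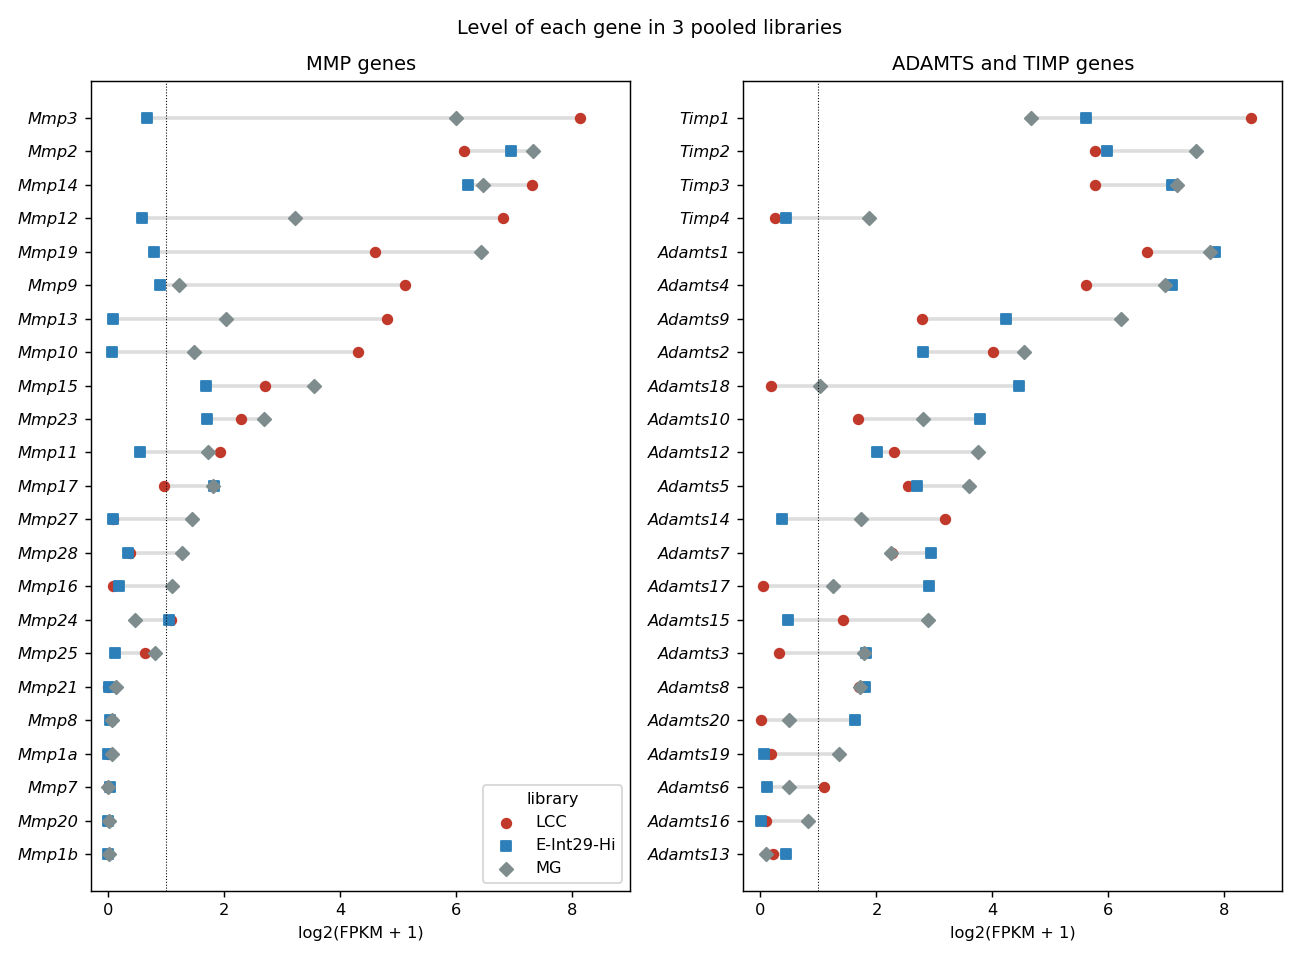
Level of all 46 genes as log2(FPKM + 1), with a circle for LCC, a square for E-Int29-Hi and a diamond for MG, the MMPs on the left, the ADAMTS and TIMP genes on the right, and a dotted line at 1 FPKM. LCC is the highest point for Mmp3, Mmp12, Mmp9, Mmp13, Mmp10 and Timp1, and the lowest for Adamts1, Adamts4 and Adamts9.

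The ADAMTS genes were lowest in LCC when summed. Their sum was 198 FPKM in LCC, 452 FPKM in E-Int29-Hi and 488 FPKM in MG. Of the 17 ADAMTS genes that reached 1 FPKM, 2 were highest in LCC, 9 in the E-Int29-Hi library and 6 in MG, while of all genes at 1 FPKM 41.6% were highest in LCC, 25.2% in the E-Int29-Hi library and 33.2% in MG. Of the 16 MMPs that reached 1 FPKM, 8 were highest in LCC, 1 in the E-Int29-Hi library and 7 in MG.

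Adamts1 and Adamts4, which cleave versican and aggrecan, led the family in each library. Adamts1 was at 100.04 FPKM in LCC, 229 FPKM in E-Int29-Hi and 215 FPKM in MG, and Adamts4 at 47.9, 135 and 124 FPKM. LCC was lowest for both, with differences of -1.19 and -1.48 from E-Int29-Hi and of -1.10 and -1.36 from MG, inside the 4-fold line. Together they made up 74.8%, 80.7% and 69.6% of the family sum.

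Adamts9, another versican-cleaving member, was the only member called lower in LCC than in MG. It was at 5.92 FPKM in LCC, 17.8 FPKM in E-Int29-Hi and 73.6 FPKM in MG, so that LCC was below MG (difference of -3.43), and the difference of E-Int29-Hi from MG was -1.99, just short of the line. Exons of 2 opposite-strand gene models overlap it, of which A730049H05Rik was the higher, at 2.89 FPKM in MG. Adamts15, also a proteoglycan-cleaving enzyme, was at 1.68, 0.383 and 6.42 FPKM, and its difference of -2.42 in E-Int29-Hi against MG was called. Adamts5 (4.83, 5.50 and 11.2 FPKM) and Adamts8 (2.25, 2.47 and 2.27 FPKM) were within 4-fold throughout, and Adamts20 reached 2.08 FPKM in E-Int29-Hi and stayed under 1 FPKM elsewhere.

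Among the procollagen N-propeptidases, which trim newly made fibrillar collagen, Adamts14 was the only ADAMTS gene called higher in LCC. It stood at 8.07 FPKM in LCC, 0.294 FPKM in E-Int29-Hi and 2.34 FPKM in MG, which is 2.81 above E-Int29-Hi and 1.44 above MG. Adamts2 was at 15.2, 6.01 and 22.4 FPKM and Adamts3 at 0.243, 2.54 and 2.44 FPKM, both within 4-fold. The 3 enzymes of this class thus had 3 different orders of libraries.

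Of the ADAMTS genes, 3 were called lower in LCC than in E-Int29-Hi, beside 4.35% of all genes. Only Adamts18 was called higher in E-Int29-Hi than in both others, beside 1.99% of all genes. Adamts18, an ADAMTS with few known substrates, was at 20.9 FPKM in E-Int29-Hi against 0.137 in LCC and 1.04 in MG. E-Int29-Hi was 3.42 above MG, and LCC was below E-Int29-Hi by more (difference of -4.27). Adamts17 was at 6.46 FPKM in E-Int29-Hi, 0.0270 in LCC and 1.38 in MG, and Adamts10, which acts on fibrillin microfibrils, at 12.8, 2.20 and 5.94 FPKM in the same order. Both were called lower in LCC than in E-Int29-Hi (differences of -2.86 and -2.11) and neither was called against MG. A pseudocount of 5 ended both calls, at -1.19 and -1.30. Adamts12, which was highest in MG, stood at 3.92, 3.03 and 12.5 FPKM for LCC, E-Int29-Hi and MG. Adamts7 was between 3.74 and 6.68 FPKM, in part uncertain because its exons overlap the opposite-strand gene Tbc1d2b (12.7, 4.94 and 11.2 FPKM). Adamts6 reached 1.12 FPKM in LCC and Adamts19 1.55 FPKM in MG, while Adamts13, the protease of von Willebrand factor, and Adamts16 stayed under 1 FPKM.

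The TIMP genes differed between libraries in make-up. Their sums were not scaled to the library totals, which were highest in LCC and lowest in MG. The sums therefore cannot be read as shares of each library. The 4 TIMP genes summed to 459 FPKM in LCC, 245 FPKM in E-Int29-Hi and 352 FPKM in MG. Timp1, a soluble inhibitor that also binds the Mmp9 precursor, was at 352 FPKM in LCC, 47.7 FPKM in E-Int29-Hi and 24.3 FPKM in MG. It was 2.86 above E-Int29-Hi and 3.80 above MG, and made up 76.6% of the TIMP sum in LCC against 19.5% and 6.89%.

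Timp2, which helps Mmp14 to activate Mmp2, was at 53.8 FPKM in LCC, 61.7 FPKM in E-Int29-Hi and 182 FPKM in MG. Timp3, which is held in the matrix and also inhibits several ADAM and ADAMTS enzymes, was at 53.3, 135 and 144 FPKM. Both were lowest in LCC, within 4-fold of the other libraries. The differences from E-Int29-Hi and MG were -0.19 and -1.74 for Timp2 and -1.33 and -1.42 for Timp3. As TPM without mitochondrial, small RNA and unnamed models, Timp2 passed the line against MG, at -2.03. Timp4 was the least abundant, at 0.188, 0.352 and 2.66 FPKM, and the opposite-strand gene Syn2, whose exons overlap it, stood at 0.115, 0.974 and 1.39 FPKM. The largest share of the sum was thus held by Timp1 in LCC, by Timp3 in E-Int29-Hi (55.2%) and by Timp2 in MG (51.5%).

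Set against each other as sums of FPKM, MMP to TIMP was 1.60 in LCC, 0.842 for E-Int29-Hi and 1.23 for MG. ADAMTS to TIMP was 0.431, 1.84 and 1.38 in that order. These are ratios of transcript levels and say nothing of active enzyme. The MMP ratio rested on single genes, since without the most abundant MMP of each library it was 0.992, 0.344 and 0.781.

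**Figure D4:**
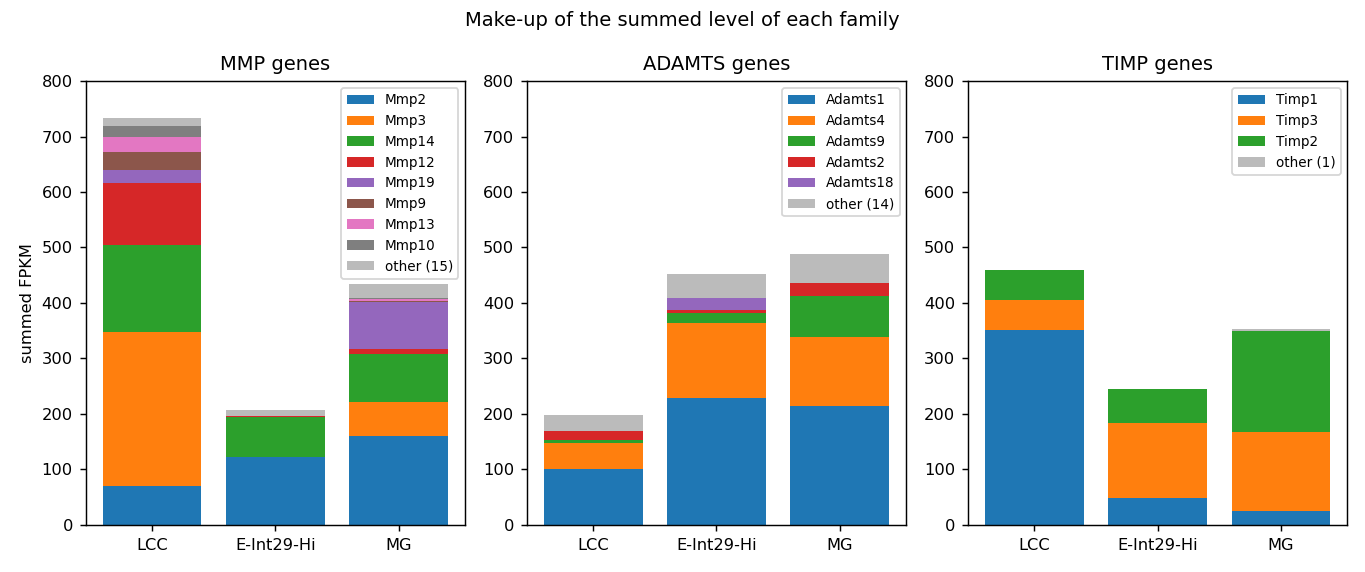
Summed FPKM of the 23 Mmp, 19 Adamts and 4 Timp genes in each library, stacked by gene, with genes under 15 FPKM in every library grouped as other. In LCC Mmp3 and Timp1 are the largest blocks and the ADAMTS bar is the lowest of the 3.

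Counted by comparison, 32 of the 46 genes could be measured in LCC against E-Int29-Hi, and 8 of these 32 (25%) were called higher in LCC, where 4.64% of all 12147 measured genes were. These were Mmp3, Mmp9, Mmp10, Mmp12, Mmp13, Mmp19, Adamts14 and Timp1. Called lower were 3 genes, Adamts10, Adamts17 and Adamts18, beside 4.35% of all genes. The median difference over the measured genes was 0.16, against 0.26 over all genes. A gene measured only because it was high in one library had to differ, so these counts are a description. Of the measured MMPs 11 of 13 lay above 0 and of the ADAMTS genes 5 of 16, where 60.7% of all genes lay above 0.

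In LCC against MG, 36 genes were measured and 6 were called higher, beside 1.33% of all 12443 genes. They were Mmp3, Mmp9, Mmp10, Mmp12, Mmp13 and Timp1. Adamts9 was the 1 gene called lower, beside 2.63% of all genes. The median was -0.87 against 0.01 over all genes, and 12 of the 36 lay above 0, where 50.3% of all genes did. Of the 24 below 0, 13 were ADAMTS genes. The 6 genes called higher than MG were also called higher than E-Int29-Hi, comparisons that share the LCC library.

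In E-Int29-Hi against MG, 36 genes were measured, 1 was called higher (Adamts18, beside 2.60% of all genes) and 4 lower (Mmp3, Mmp12, Mmp19 and Adamts15, beside 3.97%). The median was -0.92 against -0.23 over all genes, and 2 of 16 measured MMPs lay above 0, where 38.1% of all genes did. For Mmp3, Mmp12 and Mmp19 E-Int29-Hi was lower than both others, beside 1.45% of all genes at 1 FPKM in any library, and for Adamts18 it was higher, beside 1.99%. No member was called lower in LCC than in both others, beside 0.587% of all genes, and 0 members set MG apart from both others as higher or lower, beside 1.16% and 0.0626% of all genes. With a pseudocount of 0.1 in place of 1, which gives low genes more weight, 16 members of E-Int29-Hi and 8 of LCC were called lower than MG, beside 8.76% and 6.55% of all genes. Leaving out mitochondrial, small RNA and unnamed models and rescaling the rest to the same sum (TPM) gave 15 and 10, beside 7.68% and 6.41% of all genes. The median of all genes was then -0.47 and -0.34, and the parts of the removal and of the rescaling were not separated. This setting also took the Mmp3 difference of LCC from MG below the line, at 1.87.

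**Figure D5:**
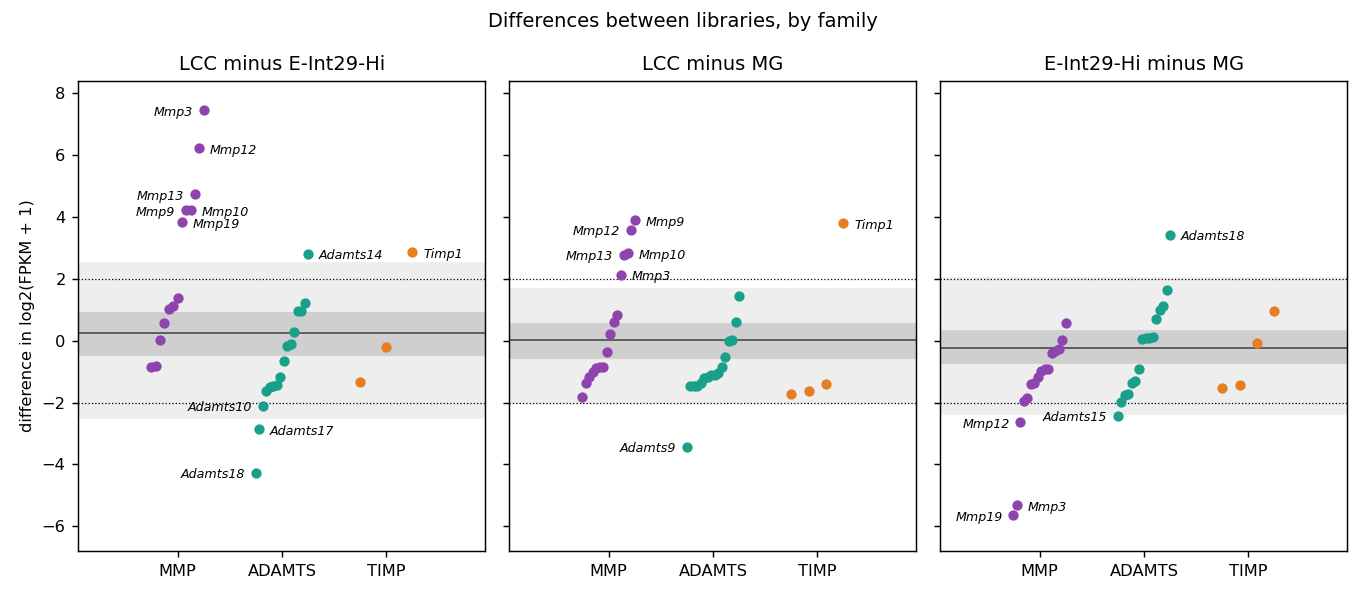
Difference in log2(FPKM + 1) for each measured gene, by family, in the 3 comparisons, with the central 95% of all genes in light grey, the central 50% in dark grey, their median as a line and dotted lines at 2 and -2. In LCC against E-Int29-Hi and against MG Mmp3, Mmp9, Mmp10, Mmp12, Mmp13 and Timp1 lie above the upper dotted line, while most ADAMTS genes lie below the median.

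Markers of the cell types that make these enzymes also differed between the libraries. For these and the lists that follow, the shares over all genes are given here once. Of all genes, 4.64% were called higher and 4.35% lower in LCC than in E-Int29-Hi. Against MG these shares were 1.33% and 2.63%. Summed over 8 fibroblast genes, such as Col1a1, Pdgfra and Thy1, the level was 1375 FPKM in LCC, 137 FPKM in E-Int29-Hi and 2923 FPKM in MG. All 8 fibroblast genes were at or above 1 FPKM in each library, 6 were called higher in LCC than in E-Int29-Hi and 0 were called against MG. The 8 basal epithelial genes were highest in E-Int29-Hi, at 653, 7315 and 460 FPKM. All 8 were called lower in LCC than in E-Int29-Hi.

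Macrophage and monocyte genes (8 found) summed to 521, 115 and 207 FPKM, with Lyz2 at 232, 60.6 and 28.5 and Ctss at 162, 9.34 and 14.5. Not every marker had that order, as Cd14 (51.1 FPKM in LCC against 130 in MG) and Mrc1 (1.78, 3.95 and 6.53 FPKM) were highest in MG. Alveolar macrophage genes (7 found) summed to 9.88, 1.56 and 11.1 FPKM, with Ear1 listed at 0 in each library and Siglec5 in LCC and E-Int29-Hi. Among them Ear2, at 3.19, 0.0346 and 0.297 FPKM, was called higher in LCC than in E-Int29-Hi. Dendritic cell genes (9) summed to 144, 9.46 and 15.7 FPKM, with Cd209a listed at 0 in LCC. Most of the LCC sum came from Ccl22 (53.5, 1.84 and 1.61 FPKM), Ccl17 (47.0, 0.989 and 0.997 FPKM) and Ccr7 (25.3, 1.82 and 5.60 FPKM), with Itgax at 10.8, 0.462 and 0.915 FPKM, while Batf3 was lowest in LCC (0.350, 1.75 and 0.935 FPKM). Neutrophils store Mmp8 and Mmp9, and neutrophil genes (9) summed to 31.7, 2.02 and 12.4 FPKM, with 5 of them at 0 in LCC (Cxcr2, Mpo, Camp, Ngp and Ly6g). Nearly all of the LCC sum came from S100a8 (14.6, 0.336 and 9.15 FPKM) and S100a9 (15.9, 0.397 and 1.63 FPKM).

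Lung epithelial genes (8) summed to 644 FPKM in LCC, 3.65 FPKM in E-Int29-Hi and 7.94 FPKM in MG, of which Scgb1a1 alone held 572 FPKM in LCC. Endothelial genes (8) summed to 115, 113 and 548 FPKM, luminal epithelial genes (8) to 4687, 371 and 2443, lymphocyte genes (8) to 4.10, 2.51 and 8.02 and platelet genes (5) to 9.55, 11.1 and 9.70. The luminal sum was carried by keratins such as Krt18 (2368, 73.5 and 819 FPKM), and of the 8 luminal genes 0 were called higher in LCC against MG, while 2 were called lower, Elf5 (0.964 against 15.6 FPKM) and Esr1 (0.734 against 10.6 FPKM). The luminal, macrophage, dendritic, neutrophil and lung sums were thus highest in LCC. So were the 6 members called higher there than in both others, Mmp3, Mmp9, Mmp10, Mmp12, Mmp13 and Timp1. The part of these cells in the member levels was not tested. The fibroblast sum was highest in MG, as were Mmp19 and Mmp2, and lowest in E-Int29-Hi, as was Mmp19, and that part too was not tested.

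Plasminogen activation, which produces the protease plasmin that can remove MMP propeptides, included genes called higher in LCC. Of 7 genes reported, 5 were measured, 2 were called higher in LCC than in E-Int29-Hi (Plau and Serpinb2) and 1 higher than in MG (Serpinb2), with 0 lower in either. Their median difference was 1.48 from E-Int29-Hi and 1.19 from MG, against 0.26 and 0.01 over all genes. The medians of the lists below are in the same order and stand beside the same values over all genes. Plau, the urokinase gene, was at 265, 34.3 and 108 FPKM for LCC, E-Int29-Hi and MG. Serpinb2, which encodes an inhibitor of it, was highest in LCC as well, at 151, 0.584 and 5.79 FPKM, as was the urokinase receptor gene Plaur, at 235, 98.9 and 102 FPKM. Plg, which encodes plasminogen and is made in the liver, was listed at 0 in each library.

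Among 10 genes of the membrane-bound ADAM family, 3 were called higher in LCC than in E-Int29-Hi and 0 lower, and 1 was higher and 1 lower than in MG (medians of 0.89 and -0.47). Adam8, a protease of leukocytes and activated cells, was at 44.7, 0.588 and 4.81 FPKM, and Adam12 at 44.4, 3.99 and 10.4 FPKM. The sheddase genes Adam10 (17.9, 12.9 and 47.5 FPKM) and Adam17 (13.3, 8.96 and 18.8 FPKM) were within 4-fold. Adam33 was the 1 lower than in MG, at 0.450 against 5.14 FPKM, and Adam23 the third above E-Int29-Hi, at 5.45 against 0.488 FPKM.

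Of 7 ADAMTS-like genes, which share the repeats and lack the protease, 1 was called lower in LCC than in both others and 0 higher. It was Papln (papilin), at 2.04, 45.8 and 23.3 FPKM, a level order like that of Adamts10, Adamts17 and Adamts18 in that LCC was lowest and E-Int29-Hi highest. Thsd4 was the 1 called for E-Int29-Hi against MG, as lower (1.61 against 12.9 FPKM).

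Regulators of MMP activity were mostly level or lower in LCC, with 2 of 8 called lower than in E-Int29-Hi, 2 lower than in MG and 0 higher in either (medians of -0.86 and -0.63). Reck, a membrane-bound MMP inhibitor, was at 1.68, 6.63 and 5.60 FPKM, within 4-fold. Furin, the convertase that activates Mmp14 and many ADAMTS precursors, was at 71.1, 82.2 and 58.0 FPKM, and Bsg, an inducer of MMPs, at 133, 89.0 and 101 FPKM. Called genes were the convertases Pcsk5 (1.59, 27.6 and 6.43 FPKM) and Pcsk6 (1.12, 6.69 and 8.72 FPKM), and Lcn2, which binds Mmp9 (55.2, 2148 and 363 FPKM).

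Of the substrates, versican was the single large proteoglycan above 0.1 FPKM. Vcan stood at 59.1 FPKM in LCC, 25.6 FPKM in E-Int29-Hi and 29.7 FPKM in MG, whereas Acan, Bcan and Ncan were listed at 0 in LCC. Of all 8 proteoglycan genes, 2 were called higher and 1 lower in LCC than in E-Int29-Hi, and 1 higher and 0 lower than in MG, with Bgn, which encodes biglycan, at 632, 121 and 114 FPKM. The other genes called were Lum, as higher (48.4 against 3.50 FPKM), and Fmod, as lower (3.23 against 74.8 FPKM). Of 6 fibrillar collagen genes, 5 (Col1a1, Col1a2, Col3a1, Col5a1 and Col5a2) were called higher in LCC than in E-Int29-Hi. Against MG 0 were called (medians of 3.45 and -0.49). Col1a1 was at 427, 15.9 and 598 FPKM.

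Of 8 genes for cytokines known to induce MMPs, 5 (Csf2, Il1a, Il1b, Il6 and Tnf) were called higher in LCC than in E-Int29-Hi, 1 (Csf2) higher than in MG and 0 lower in either (medians of 3.18 and 1.63). Il1b was at 59.6, 1.19 and 18.1 FPKM and Tnf at 63.5, 6.32 and 18.9 FPKM. Of 10 AP-1 and ETS factor genes, 0 were called higher in LCC in either comparison, beside 4.64% and 1.33% of all genes. At those shares 0 of 10 does not set these genes apart. Of the same 10, Fos and Fosb were called lower than in MG, beside 2.63% of all genes. The medians of the 10 were -0.86 and -0.72, against 0.26 and 0.01 over all genes. Whether these cytokines or factors bear on the MMP levels was not tested. Fos was at 94.7, 369 and 604 FPKM, Jun at 222, 210 and 355 and Fosl1 at 49.4, 109 and 84.6.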

How the data were processed

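Per the labels' protocols, poly(A) RNA was captured with poly-T beads before Illumina sequencing. The authors deposited 1 table per library with a gene identifier, a name, an FPKM value and a status. Per the submitters' processing notes, TopHat 1.4.1, Cufflinks 1.3.0 and mm9 were used, in roles not stated. The sources used here do not give the annotation release. Of 22378 gene models, the 22188 with status OK in all 3 libraries were kept. For each of 105 names on several models, the model with the highest summed FPKM was used. Whether counting used strand is not stated, so opposite-strand overlaps, taken from GENCODE M21, are named. Log2 differences of the deposited FPKM values were computed with a pseudocount of 1 FPKM and a filter at 1 FPKM, and checked on simulated data. Named are members at 10 FPKM or more in a library, those called in a comparison and the TIMPs, and the others are given by range or value. The rule for the other lists was the 4 genes highest in FPKM and those called. Not every such gene is given, and Reck, Adam10, Adam17, Fosl1, Itgax, Mrc1, Batf3 and markers listed at 0 were named for their role after their values were seen. Members and lists were chosen with earlier results of these data known. The alternatives were pseudocounts of 0.1 and 5, a filter at 5 FPKM or none, median ratio scaling, TPM without mitochondrial, small RNA and unnamed models, every status, and summed models. Alternatives for counts against both others and for the MMP to TIMP ratio were added after seeing the data. Protein sequences were not used here. One gene of the other lists is not reported here. Python 3.11.15, numpy 2.4.6, pandas 2.3.3 and matplotlib 3.10.9 were used.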

Additional observations from a re-analysis of the deposited data

How the results depend on the processing

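No paired analysis was possible because each group has 1 library. For the 24 named members there were 72 differences, of which 23 were called, and all 23 kept their sign under every alternative. Of these, 15 stayed called throughout. A pseudocount of 5 ended 7 calls, among them Mmp10 (1.80) and Mmp13 (1.98) in LCC against MG, and TPM ended the call of Mmp3 there. A filter at 5 FPKM, no filter, median ratio scaling, genes of every status and summed models ended none. Median ratio scaling moved the median gene of LCC against E-Int29-Hi from 0.26 to 0.00.

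Counts that moved by over 1.5 times were as follows. The share of all genes is given beside each. Lower in LCC than E-Int29-Hi were 3 members (4.35%), with 5 at a pseudocount of 0.1 (7.80%), 1 at 5 (1.93%) and 5 by TPM (6.84%). Lower in LCC than MG was 1 (2.63%), with 8 at 0.1 (6.55%) and 10 by TPM (6.41%). Higher in E-Int29-Hi than MG was 1 (2.60%), with 3 at 0.1 (4.19%), and lower were 4 (3.97%), with 16 at 0.1 (8.76%), 2 at 5 (1.28%) and 15 by TPM (7.68%). Against both others, LCC was lower for 0 (3 at 0.1, 2 by TPM), E-Int29-Hi higher for 1 (3 at 0.1) and lower for 3 (7 at 0.1, 6 by TPM), and MG higher for 0 (5 at 0.1, 6 by TPM). Over all genes these counts were 75 (253, 238), 254 (405), 185 (442, 359) and 148 (360, 358). TPM here also left out mitochondrial, small RNA and unnamed models. TPM values are larger than FPKM, so the same pseudocount and filter weigh low genes more. Depth is unknown, and levels under 1 FPKM are the least certain.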

Other observations

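The genes on either side of the chromosome 9 MMP row were chosen after their values were seen. Among them LCC was highest for Birc3 and Dcun1d5 and lowest for Yap1 and Birc2. Yap1, a transcriptional coactivator of the Hippo pathway that lies beyond the Mmp7 end, was at 24.0 FPKM in LCC, 136 FPKM in E-Int29-Hi and 56.4 FPKM in MG, and was the 1 flanking gene called in LCC against E-Int29-Hi, as lower (difference of -2.46). Birc3, an inhibitor of apoptosis, was at 67.2, 42.0 and 32.6 FPKM, and Birc2 at 8.45, 24.7 and 13.3 FPKM. Dcun1d5, next to Mmp13, was at 39.4, 25.0 and 24.5 FPKM. Of the 7 flanking genes listed, 6 were measured and 0 were called higher in LCC in either comparison. Over all genes 4.64% were called higher in LCC than in E-Int29-Hi and 1.33% than in MG. At those shares 0 of 6 does not set the flanking genes apart.

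Neighbouring ADAMTS genes had unlike levels. Adamts1 and Adamts5 are next to each other among protein-coding genes on the reference, and Adamts1 was at 100.04, 229 and 215 FPKM (LCC, E-Int29-Hi, MG) against 4.83, 5.50 and 11.2 for Adamts5. Adamts15 and Adamts8 form the other pair, with Adamts15 at 1.68, 0.383 and 6.42 FPKM and Adamts8 at 2.25, 2.47 and 2.27 FPKM.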
